A study of Mus musculus with 2 samples.

Results

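B lymphocytes with few or no C1q, calprotectin and Cd3 transcripts were taken from 2 single-cell RNA sequencing libraries of the mouse prostate, the first made from a tumour and the second from the normal prostate beside it, called normal adjacent below. A cell entered the set when it held at least 5 UMIs of Cd79a, Cd79b and Ms4a1 together. It was kept only with under 5 UMIs of Mzb1, at most 2 UMIs of C1qa, C1qb and C1qc, under 0.2% of its UMIs from S100a8 and S100a9, and no UMI of Cd3d, Cd3e or Cd3g. A UMI, or unique molecular identifier, counts 1 captured transcript molecule. The rule found 287 of 13977 filtered cells, which were 101 of 7768 in the tumour library and 186 of 6209 in the normal adjacent library. The other 7667 tumour and 6023 normal adjacent cells served as the background. The members were chosen by the measured UMIs of B cell genes, so the levels of these genes describe the gate and are not findings.

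Both groups are labelled as prostate tissue holding CD45+ and epithelial cells. CD45, the product of Ptprc, marks leukocytes. Cells were freed with collagenase at 1 mg/ml followed by trypsin, and sorted CD45+ and CD45- cells of a tissue shared 1 channel of a droplet 3' kit. The sources used here do not give strain, age, genotype or tumour model. With 1 library per group no test between the tissues was possible, no p-value is given, and all 95% intervals in parentheses cover counting error only. The differences are between libraries, and the tissue cannot be told apart from the library.

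B cells recognise antigen through a membrane immunoglobulin that signals through the Cd79a and Cd79b chains. The transcription factors Ebf1 and Pax5 set up and hold the B cell programme. Mature naive B cells carry IgM and IgD together, circulate between blood and lymphoid organs, and present antigen on MHC class II. Activated cells may enter germinal centres, switch to other immunoglobulin classes, or become antibody-secreting plasma cells, which lose Ms4a1 and Pax5 and gain Jchain and Xbp1. In solid tumours B cells are known as a minority of the infiltrate that can present antigen, make cytokines or give rise to plasma cells.

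The tumour B cells held 495659 UMIs in all, with a median of 3671 per cell and a range of 984 to 38060. The normal adjacent B cells held 973312 UMIs, with a median of 4325.5 and a range of 806 to 21151. They were shallower than the other filtered cells, whose medians were 6794 UMIs in tumour and 6547 in normal adjacent tissue. T cells, defined by at least 3 UMIs of the Cd3 genes and no UMI of the 3 B cell genes, numbered 2441 in tumour and 2103 in normal adjacent tissue and had medians of 7993 UMIs in tumour and 7274 in normal adjacent tissue. Of the barcodes, 18 occurred in both libraries, and none of these was a B cell.

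B cells were a smaller part of the tumour library than of the normal adjacent library. They made up 1.30% (1.06 to 1.58) of filtered tumour cells and 3.0% (2.59 to 3.45) of filtered normal adjacent cells, a difference of -1.70 percentage points (-2.20 to -1.21). Among cells with a Ptprc UMI the shares were 1.28% in tumour and 3.12% in normal adjacent tissue, a difference of -1.84 points (-2.41 to -1.30). Set against T cells, which does not depend on how many CD45- cells were loaded, there were 3.40 B cells per 100 T cells in tumour (2.76 to 4.15) and 7.05 in normal adjacent tissue (6.04 to 8.18). Here all cells with at least 3 Cd3 UMIs counted as T cells, 2968 in tumour and 2638 in normal adjacent tissue. The ratio of these ratios was 0.483 (0.375 to 0.618). The tumour was lower by each of the 3 denominators, and none of the interval pairs overlapped.

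**Figure D1:**
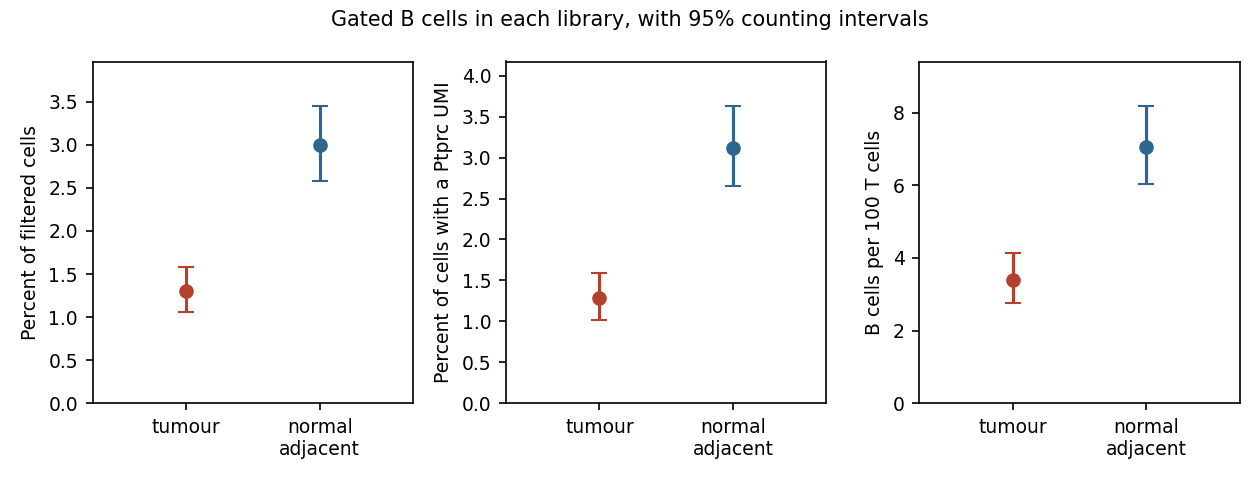
Gated B cells as a percent of filtered cells (left), as a percent of cells with a Ptprc UMI (middle) and per 100 T cells (right), with tumour in red and normal adjacent tissue in blue; bars are 95% counting intervals. The tumour library was lower in each panel, with 3.40 B cells per 100 T cells in tumour and 7.05 in normal adjacent tissue in the right panel.

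The size of this difference in percentage points rests on the exclusions, which removed most cells with B cell genes. At least 5 UMIs of Cd79a, Cd79b and Ms4a1 were found in 343 tumour and 450 normal adjacent cells. The C1q limit was exceeded by 143 of the 343 tumour candidates (41.7%) and 175 of the 450 normal adjacent candidates (38.9%). T cells exceeded it in 51.9% of tumour and 48.0% of normal adjacent cells, although they are not a source of it. Mzb1 removed 110 tumour (32.1%) and 76 normal adjacent candidates (16.9%), a larger share in tumour. No alternative setting relaxed the Mzb1 limit. Cd3 removed 137 tumour and 191 normal adjacent candidates, and S100a8 and S100a9 removed 41 tumour and 28 normal adjacent candidates. The exclusions overlapped. Without the C1q, S100a8 and S100a9 and Cd3 exclusions the difference was -3.02 points, and with no C1q UMI allowed it was -0.510 points. Cells that carried at least 3 UMIs of Lyz2 and Apoe or a T cell receptor constant UMI were common, and without them it was -0.667 points. The shares of both libraries changed with these settings, and the ratio of B cells per 100 T cells varied less. It was 0.554 without the exclusions, 0.637 with no C1q UMI allowed and 0.425 without the cells carrying other transcripts, against 0.483.

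Cells on either side of the limits carried B cell transcripts alike. Ebf1 was found in 15 of 16 tumour and 22 of 22 normal adjacent cells that failed only just on C1q, with 3 or 4 UMIs. It was found in 16 of 16 tumour and 32 of 32 normal adjacent cells with 1 Cd3 UMI. All 5 tumour and 7 normal adjacent cells just under the B cell gene minimum had it, as did 3 of 3 tumour and 3 of 4 normal adjacent cells just over it. Of cells with 3 or 4 Mzb1 UMIs, inside the limit, 18 of 19 in tumour and 24 of 25 in normal adjacent tissue had Ebf1, and of those with 5 or 6, outside it, 14 of 14 in tumour and 10 of 10 in normal adjacent tissue.

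The label was checked with genes that the gate did not use. Levels are CPM, the UMIs of a gene in the summed cells scaled to a total of 1000000 UMIs. Pax5 stood at 151 CPM in the B cells of each library, against 2.52 CPM in other tumour cells and 2.92 CPM in other normal adjacent cells. At least 1 Ebf1 UMI was found in 99.0% of tumour and 97.8% of normal adjacent B cells, against 1.02% of tumour and 0.86% of normal adjacent T cells. The gate genes were high by the choice of the cells. Cd79a, the signalling chain of the antigen receptor, stood at 2377 CPM in tumour B cells and 2727 CPM in normal adjacent B cells, against 40.6 CPM in other tumour cells and 63.6 CPM in other normal adjacent cells. Cd79b stood at 653.7 CPM in tumour and 640.1 CPM in normal adjacent B cells. Ms4a1, which encodes CD20, stood at 756.6 CPM in tumour and 872.3 CPM in normal adjacent B cells.

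The Cd79a promoter is shown as that of the most abundant gate gene and that of Fcer2a as the gene with the highest ratio to other cells. Both windows run from 250 bases before to 50 after a RefSeq transcription start in build GRCm38.p6, and capitals mark the core of the site bound by ETS factors, GGAAGT, on either strand. Cd79a lies at chr7:24897247-24897546 on the plus strand, with the match beginning 54 bases before the start. Fcer2a lies at chr8:3694125-3694424 on the minus strand, with a match on the opposite strand beginning 113 bases before the start. The table holds 3 start windows for Fcer2a, and neither of the other two has these letters on either strand.
Cd79a: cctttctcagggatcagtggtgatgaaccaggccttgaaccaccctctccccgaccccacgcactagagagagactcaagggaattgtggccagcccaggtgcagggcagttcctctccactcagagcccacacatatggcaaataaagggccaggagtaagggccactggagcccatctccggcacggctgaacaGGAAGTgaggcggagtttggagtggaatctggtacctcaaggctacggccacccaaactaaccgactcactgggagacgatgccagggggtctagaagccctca
Fcer2a: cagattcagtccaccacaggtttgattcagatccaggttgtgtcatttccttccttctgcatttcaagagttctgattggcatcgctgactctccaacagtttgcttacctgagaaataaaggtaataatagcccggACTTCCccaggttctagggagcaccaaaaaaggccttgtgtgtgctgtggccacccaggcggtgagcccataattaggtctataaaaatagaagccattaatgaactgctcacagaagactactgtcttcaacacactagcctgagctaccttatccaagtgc
The letters GGAAGT occurred in 23.8% of all 32817 windows in the table. The octamer ATGCAAAT and the EBF motif CCCNNGGGA were in neither printed window and in 1.74% and 6.56% of all windows. Of 42 genes looked up, 32 had an entry.

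Among 3655 genes with at least 50 UMIs over the B cells of both libraries, 29 were at least 10-fold higher in B cells than in the other cells of both libraries, which is 0.793% of the genes. At a 2-fold limit the shares were 7.2% higher and 5.17% lower. These shares describe the gate, because B cell genes chose the cells, and the other cells still hold the B cells that failed an exclusion. Fcer2a, the low-affinity IgE receptor CD23 of mature B cells, led with 129 CPM in tumour B cells, 111.5-fold above other tumour cells, and 131.5 CPM in normal adjacent B cells, 60.3-fold above the others there. Ebf1 stood at 1261 CPM in tumour B cells and 1376 CPM in normal adjacent B cells, 74.1-fold above the other cells in tumour and 45.8-fold in normal adjacent tissue. Pax5, the factor that maintains B cell identity, came next in rank, 59.9-fold higher in tumour and 51.8-fold in normal adjacent tissue. Fcmr, the receptor for the Fc part of IgM, was 72.4-fold higher in tumour and 45.2-fold higher in normal adjacent tissue, and Bank1, an adaptor of antigen receptor signalling, 51.4-fold in tumour and 37.5-fold in normal adjacent tissue. Tnfrsf13c, the receptor for the survival factor BAFF, was 32.2-fold higher in tumour and 27.4-fold higher in normal adjacent tissue. Spib, a transcription factor of the ETS family, was 31.3-fold higher in tumour and 15.8-fold higher in normal adjacent tissue, and Pou2af1, a coactivator of octamer factors, 20.6-fold in tumour and 37.8-fold in normal adjacent tissue. Scd1, a desaturase of fatty acids, stood at 391 CPM in tumour and 377 CPM in normal adjacent B cells, 23.5-fold above the others in tumour and 21.5-fold in normal adjacent tissue. Fam43a, Fcrla, Cd55, Ralgps2 and H2-Ob, also named by this rule, had ratios between 9.25 and 31.1.

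**Figure D2:**
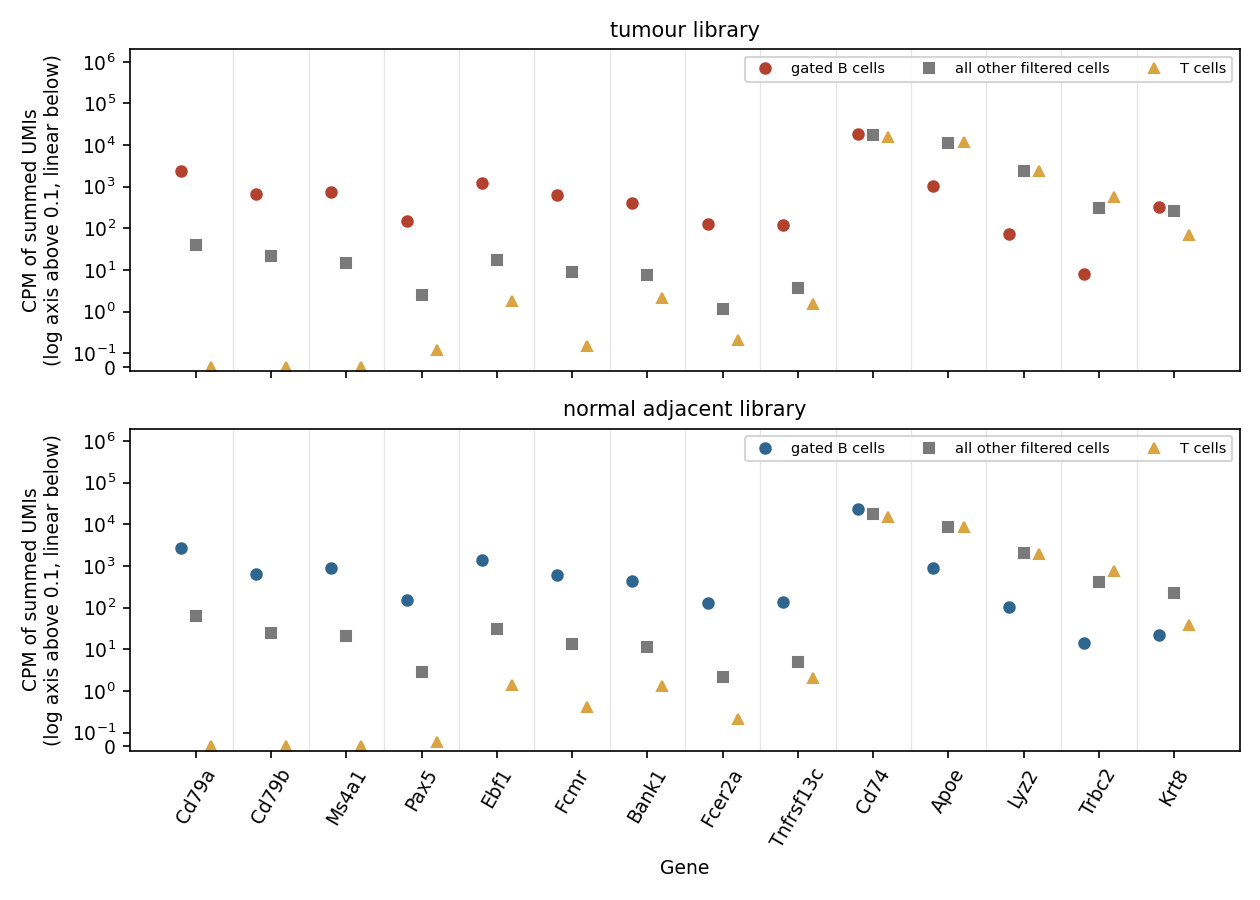
CPM of summed UMIs for gate genes, B cell genes, Cd74 and markers of other types in gated B cells (circles), all other filtered cells (squares) and T cells (triangles) of the tumour library (top) and the normal adjacent library (bottom). Pax5 stood at 151 CPM in the B cells of each library and under 3 CPM in other cells. Apoe was lower in B cells, which the gate limited on C1q, than in the rest.

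Other cell types were represented by low counts in most B cells and by high counts in a few. Summed macrophage and monocyte markers, 9 genes, stood at 1263 CPM in tumour B cells and 1142.5 CPM in normal adjacent B cells, against 16618 CPM in the other tumour cells and 13389 CPM in the other normal adjacent cells. Most of this was Apoe, found in 86.1% of tumour and 88.2% of normal adjacent B cells, below the 93.0% of T cells in each library. The T cells were deeper and, unlike the B cells, were not limited on C1q or calprotectin. Of them, 53.3% in tumour and 49.0% in normal adjacent tissue exceeded these limits. The parts of the gate and of depth in the lower B cell values were not tested. The ratio of Apoe between the libraries was 1.17 (1.05 to 1.31) in B cells, 1.58 (1.41 to 1.78) without the 7 cells described next, and 1.28 in the other cells. Of the 10 T cell markers the B cells held 280 CPM in tumour and 314 CPM in normal adjacent tissue, against 1948 CPM in tumour and 2493 CPM in normal adjacent T cells. Cd2, which B cells of the mouse also express, gave 220 CPM of this in tumour and 234 CPM in normal adjacent B cells. Cd4 had no UMI in tumour B cells and 2 UMIs in normal adjacent B cells.

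In all, 7 members, 3 in tumour and 4 in normal adjacent tissue, carried markers of another cell type or of antibody secretion. A tumour cell of 38060 UMIs held 549 UMIs of epithelial markers and 7.68% of all UMIs of the tumour B cells. Another, of 17704 UMIs, held 17 UMIs of Siglech, a receptor of plasmacytoid dendritic cells. The third, of 16513 UMIs, held 7256 UMIs of Igkc, 1355 of Ighm and 560 of Jchain, with 3 of Mzb1 and none of Ebf1. In normal adjacent tissue 3 cells held 76, 8 and 5 epithelial UMIs and 1 cell held 8 UMIs of Siglech. Without these 7 cells 225 of 3341 genes with 50 UMIs were at least 1.5-fold higher in tumour and 164 at least 1.5-fold lower, with a median log2 ratio of 0.04. NK cell markers did not enter the choice of the 7 cells. They summed to 165 CPM in tumour B cells and 210 CPM in normal adjacent B cells. The other cells held 816 CPM in tumour and 1374 CPM in normal adjacent tissue. A single B cell held 32 of these UMIs (39.0%) in tumour and another 86 (42.2%) in normal adjacent tissue.

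The transcript levels of the B cells of both tissues were close for most genes. Of the 3655 genes, 8.21% were at least 1.5-fold higher in tumour and 4.87% at least 1.5-fold lower, 51.6% had a ratio above 1, the interval of the ratio lay above 1 for 8.97% and below 1 for 7.61%, and the median log2 ratio was 0.02. All 20 genes of the B cell identity list reached 50 UMIs. Of these, 18 were at least 2-fold above other cells in both libraries, the exceptions being Cd72 and Cd24a. Between the libraries 6 of the 20 had a ratio above 1, 1 was past 1.5-fold higher and none past 1.5-fold lower, and the median log2 ratio was -0.09. Spib was the gene past the limit, with 109 CPM in tumour B cells and 67.8 CPM in normal adjacent B cells, 1.61-fold (1.10 to 2.34). Without the 7 cells the list had 10 ratios above 1 and a median of 0.01, Spib was under the limit at 1.49 (0.989 to 2.22), and the B cell kinase Blk was past it at 1.55 (1.13 to 2.13), against 1.44 (1.05 to 1.96) with them. Pax5 had a ratio of 1.00 (0.748 to 1.33) and Ebf1 of 0.917 (0.832 to 1.01).

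Genes of naive follicular B cells were at like levels in both libraries. Of the 14, 13 reached 50 UMIs, 11 of them were at least 2-fold above other cells in both libraries, and none was past 1.5-fold between the libraries in either direction. Of the 13, 3 had a ratio above 1 with a median log2 ratio of -0.02, and 10 had one above 1 with a median of 0.09 without the 7 cells. S1pr1, the receptor that lets lymphocytes leave tissue, stood at 137 CPM in tumour and 139 CPM in normal adjacent B cells. Cxcr5, the receptor that guides B cells to follicles, stood at 96.8 CPM in tumour and 93.5 CPM in normal adjacent B cells, and Bach2, a repressor that keeps B cells from secretion, at 96.8 CPM in tumour and 105 CPM in normal adjacent B cells. The chemokine receptor Ccr7, which guides lymphocytes to lymph nodes, was slightly higher in tumour at 654 CPM, against 554 CPM in normal adjacent B cells, a ratio of 1.18 (1.03 to 1.36). Cr2, the complement receptor CD21, had 17 UMIs in tumour and 32 in normal adjacent B cells and was not compared further.

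Germinal centre and cycling genes were low. None of the 10 germinal centre genes reached 50 UMIs. Bcl6, the factor that sets the germinal centre state, had 2 UMIs in tumour and 8 in normal adjacent B cells. Mki67, a marker of dividing cells, had a UMI in 0.99% of tumour and 1.08% of normal adjacent B cells. In T cells, which were deeper, the shares were 18.8% in tumour and 14.3% in normal adjacent tissue. The replication genes Pcna and Stmn1, the only 2 of 10 cycle genes with 50 UMIs, had ratios of 0.994 (0.753 to 1.30) and 0.994 (0.662 to 1.47).

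IgM and IgD described most of the members. Ighm was found in 97.0% of tumour and 96.8% of normal adjacent B cells, against 66.2% of tumour and 41.2% of normal adjacent T cells. Both Ighm and Ighd were found in 62.4% of tumour and 77.4% of normal adjacent B cells. The cells held a median of 24.7 Ighm UMIs per 10000 UMIs in tumour and 15.05 in normal adjacent tissue. Summed over cells, Ighm stood at 5264 CPM in tumour and 1988 CPM in normal adjacent B cells, a ratio of 2.65 (2.50 to 2.81), but 51.9% of the tumour UMIs came from 1 cell. Without the 7 cells Ighm stood at 2799 CPM in tumour and 2035 CPM in normal adjacent tissue, a ratio of 1.38 (1.28 to 1.48). Its level in T cells, where it is not made, was 162 CPM in tumour and 87.7 CPM in normal adjacent tissue.

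Before depth was equalised, Ighd was found in 63.4% of tumour and 78.0% of normal adjacent B cells, a difference of -14.6 points (-25.7 to -3.70). At 1000 UMIs per cell the shares were 29.3% in tumour and 34.2% in normal adjacent tissue, a difference of -4.89 points (-15.6 to 6.63), so at this depth no difference in IgD was detectable. T cells had an Ighd UMI in 0.40% of tumour and 0.26% of normal adjacent cells at that depth. Summed Ighd stood at 293 CPM in tumour and 379 CPM in normal adjacent B cells, a ratio of 0.772 (0.632 to 0.938), and 0.863 (0.706 to 1.05) without the 7 cells.

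Kappa UMIs outnumbered lambda UMIs in 96 of 101 tumour B cells (95.05%, 88.8 to 98.4) and 168 of 186 normal adjacent B cells (90.3%, 85.1 to 94.2), and lambda outnumbered kappa in 5 tumour and 18 normal adjacent cells. Many cells held both light chains, with at least 5 UMIs of each in 28 of 101 tumour (27.7%, 19.3 to 37.5) and 31 of 186 normal adjacent B cells (16.7%, 11.6 to 22.8), against 2 of 2441 tumour T cells and 0 of 2103 normal adjacent T cells. Transcripts from other cells and droplets with more than 1 B cell were not tested as sources of this. Igkc summed to 21353 CPM in tumour and 7048 CPM in normal adjacent B cells, but 68.6% of the tumour UMIs came from the same cell as above. Without the 7 cells the levels were 7667 CPM in tumour and 7317 CPM in normal adjacent tissue, a ratio of 1.05 (1.00 to 1.09), and the medians over all cells were 73.4 UMIs per 10000 in tumour and 66.0 in normal adjacent tissue. The lambda constant gene Iglc1 stood at 165 CPM in tumour and 448 CPM in normal adjacent B cells, a ratio of 0.369 (0.288 to 0.469). Its level was 368 CPM in the other tumour cells and 14.3 CPM in the other normal adjacent cells, and 6.21 CPM in tumour and 0.348 CPM in normal adjacent T cells. Iglc2 and Iglc3 had ratios of 1.25 (1.06 to 1.48) and 1.32 (1.09 to 1.61), and Iglc2 had 1.19 (1.00 to 1.41) without the 7 cells. The lambda genes are near copies of each other, so how reads were split among them is uncertain.

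Class-switched cells were few. At least 3 UMIs of Ighg1, Ighg2b, Ighg2c, Ighg3, Igha or Ighe were found in 3 of 101 tumour and 5 of 186 normal adjacent B cells, which is 2.97% in tumour and 2.69% in normal adjacent tissue. T cells reached this level in 2.46% of tumour and 2.76% of normal adjacent cells, at a greater depth per cell. A single UMI of these genes was found in 12.9% of tumour B cells (7.04 to 21.0) and 5.91% of normal adjacent B cells (2.99 to 10.3), against 13.9% of tumour and 9.65% of normal adjacent T cells. Ighg3 had 9 UMIs in tumour B cells, 44.4% of them in 1 cell, and 3 in normal adjacent B cells, a ratio of 5.89 (1.47 to 33.8), which was 6.49 (1.62 to 37.3) without the 7 cells. The other tumour cells held 93.5 CPM of Ighg3 and tumour T cells 1.09 CPM, and the part of free transcripts in these counts was not tested. A heavy chain V segment with at least 3 UMIs, leading the others of its cell, was found in 1 cell of each library, Ighv12-3 in tumour and Ighv3-6 in normal adjacent tissue.

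**Figure D3:**
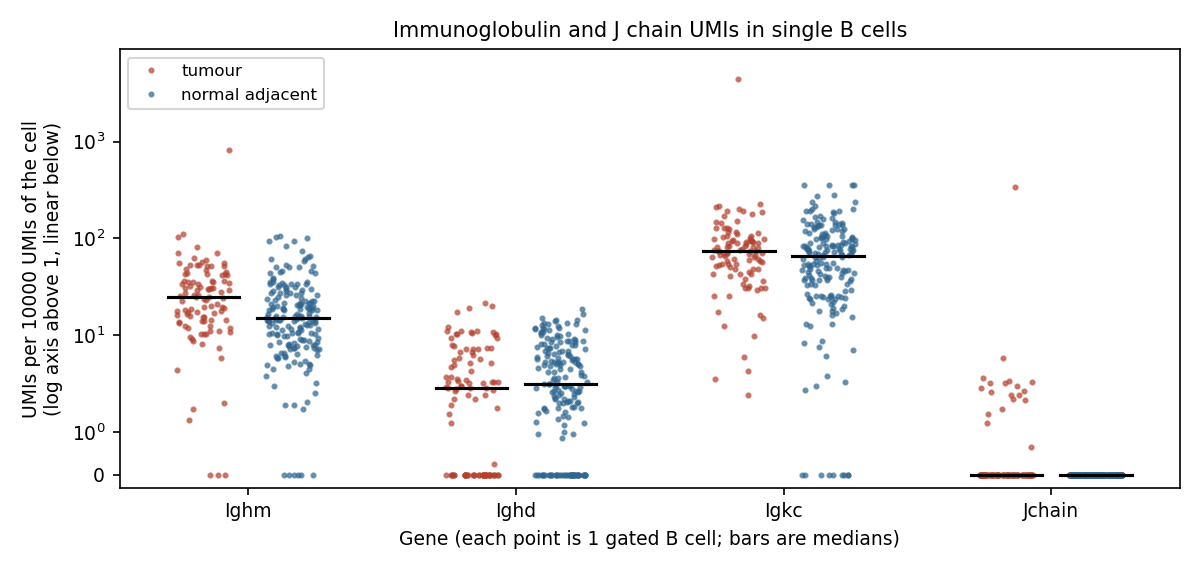
UMIs of Ighm, Ighd, Igkc and Jchain per 10000 UMIs of each gated B cell, tumour in red and normal adjacent tissue in blue, with medians as bars on a log axis that is linear below 1. The median of Ighm was 24.7 in tumour and 15.05 in normal adjacent tissue, and 1 tumour cell stood far above the rest for Ighm, Igkc and Jchain.

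Antibody secretion genes stood higher in tumour, where 1 cell held 62.1% of their UMIs. Of the 12 genes 7 reached 50 UMIs, all 7 had a ratio above 1 and 6 were past 1.5-fold, with a median log2 ratio of 1.17. Without the 7 cells 5 genes were compared, 3 had a ratio above 1, 1 was past 1.5-fold and the median was 0.16. However, 1 of the 7 cells was chosen by its UMIs of Jchain, a gene of this list. The fall of the median thus follows in part from that choice. The gate had also kept only cells with under 5 UMIs of Mzb1. Xbp1, the factor that drives secretory capacity, stood at 125 CPM in tumour and 44.2 CPM in normal adjacent B cells, and the levels were 42.5 CPM in tumour and 42.6 CPM in normal adjacent tissue without the 7 cells. Herpud1, a gene of the stress response of the endoplasmic reticulum, had a ratio of 2.56 (1.88 to 3.50), and 1.33 (0.887 to 1.97) without them. Jchain, which joins the units of secreted IgM and IgA, had a UMI in 18.8% of tumour B cells and 17.7% of tumour T cells, which were deeper. At 1000 UMIs per cell the shares were 5.69% in tumour B cells (2.05 to 12.2) and 2.55% in tumour T cells (1.96 to 3.25). Without the 7 cells Jchain stood at 44.9 CPM in tumour B cells and had no UMI in normal adjacent B cells, against 15.2 CPM in tumour and 1.60 CPM in normal adjacent T cells. The other tumour cells held 776 CPM, and the part of their transcripts in the B cell counts was not tested. In normal adjacent tissue Jchain was found in 0 of 186 B cells and in 1.71% of T cells, which were deeper. For these B cells the floor of 3 counts is 1.61%, which is not an exact interval bound.

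Irf4, a factor of B cell activation and of plasma cell formation, was the gene past the limit without the 7 cells. It stood at 111 CPM in tumour and 49.3 CPM in normal adjacent B cells, a ratio of 2.25 (1.5 to 3.39), which was 2.39 (1.59 to 3.61) without them. At least 1 UMI was found in 30.7% of tumour and 18.8% of normal adjacent B cells, against 12.4% of tumour and 10.5% of normal adjacent T cells. At 1000 UMIs per cell the shares in B cells were 10.1% in tumour and 5.40% in normal adjacent tissue, a difference of 4.74 points (-1.47 to 12.6). The ratio was 1.17 in the other cells and 1.18 in T cells.

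**Figure D4:**
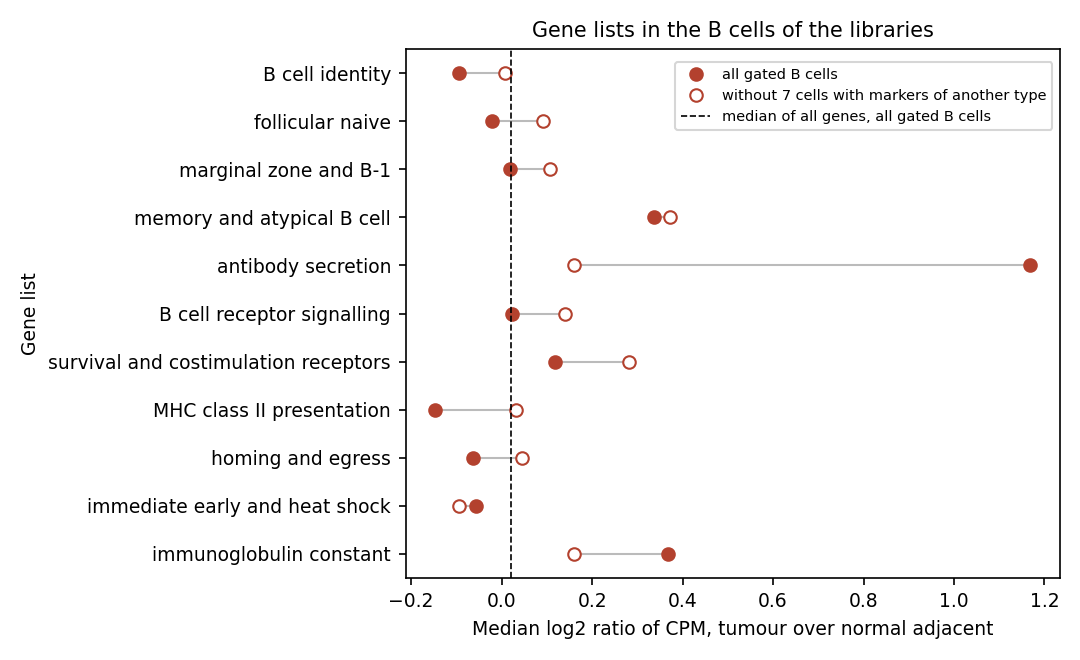
Median log2 ratio of CPM, tumour over normal adjacent, for gene lists with at least 5 genes compared. Filled points are all gated B cells, and open points leave out the 7 cells picked by epithelial markers, Siglech or Jchain. The dashed line is the median of all genes. Antibody secretion stood apart at 1.17 and at 0.16 without these cells, while the other lists stayed between -0.15 and 0.37.

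Vim, an intermediate filament protein, led the 12 genes named as higher in tumour. It stood at 894 CPM in tumour and 466 CPM in normal adjacent B cells, a ratio of 1.92 (1.68 to 2.19), while the other cells had a ratio of 0.959 and T cells of 0.999. Its share of cells with a UMI was 69.3% in tumour and 68.8% in normal adjacent tissue, and at 1000 UMIs 39.7% in tumour and 29.4% in normal adjacent tissue, a difference of 10.3 points (-1.06 to 21.9). Lmna, which encodes the lamins of the nuclear envelope, stood at 280 CPM in tumour and 138 CPM in normal adjacent B cells, 2.04-fold (1.59 to 2.60), and Tagln2, an actin-binding protein, at 448 CPM in tumour and 283 CPM in normal adjacent B cells, 1.59-fold (1.32 to 1.90). These genes are shared with other cell types, and Vim in B cells was 0.605 of its level in the other cells of the tumour library and 0.303 in the normal adjacent library, so a part taken by transcripts from other cells was not tested. Cd180, a receptor related to the Toll family that acts in B cells with Ly86, stood at 139 CPM in tumour and 70.9 CPM in normal adjacent B cells, 1.96-fold (1.39 to 2.78). Ly86 itself had a ratio of 1.37 (1.11 to 1.69), and 1.59 (1.27 to 1.97) without the 7 cells. The RNA-binding protein gene Zfp36l2 had a ratio of 1.79 (1.45 to 2.20), with 19.8% of the tumour UMIs in 1 cell. As a mean of per-cell CPM its log2 ratio was 0.47, against 0.84 from the sums. Gclc, the catalytic subunit of glutathione synthesis, had a ratio of 2.30 (1.36 to 3.92). Rab21, a GTPase of endosomes, was higher in tumour in the other cells too, with a ratio of 2.29 (1.57 to 3.36) in B cells and 1.55 in the rest. Pafah1b3 had a ratio of 2.43 (1.51 to 3.93) that was 1.69 (0.960 to 2.94) without the 7 cells. Limd1, Zfp706 and Brwd1 had ratios of 2.0, 1.67 and 2.12.

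Nop56, a core protein of the particles that modify ribosomal RNA, led the 12 genes named as lower in tumour. It stood at 82.7 CPM in tumour and 191 CPM in normal adjacent B cells, 2.31-fold lower (1.64 to 3.32), but its ratio of 0.433 in B cells was near the 0.495 of the other cells. Ncl, the nucleolar protein nucleolin, stood at 890 CPM in tumour and 1277 CPM in normal adjacent B cells, a ratio of 0.697 (0.624 to 0.777), against 0.898 in the other cells. As a mean of per-cell CPM the log2 ratio of Ncl in B cells was -0.34, against -0.52 from the sums. Nolc1, a nucleolar phosphoprotein, had a ratio of 0.568 (0.403 to 0.787), and Ppan, a ribosome assembly factor, of 0.469 (0.276 to 0.761), against 0.914 and 0.959 in the other cells. Srm, which makes spermidine, stood at 20.2 CPM in tumour and 56.5 CPM in normal adjacent B cells on 10 UMIs in tumour and 55 in normal adjacent tissue, a ratio of 0.357 (0.162 to 0.707). Hspe1, a mitochondrial chaperone, had a ratio of 0.567 (0.408 to 0.776), against 0.801 in the other cells. Tmsb10, an actin-sequestering peptide, had a ratio of 0.639 (0.584 to 0.698), against 0.709 in the other cells and 0.746 in T cells, and 0.690 (0.629 to 0.755) in B cells without the 7 cells, which is short of 1.5-fold. Nxf1, Usp10, Ankrd49, Srrt and Dtnbp1 had ratios between 0.361 and 0.505. In the 31 tumour and 59 normal adjacent B cells with at least 10 UMIs of the gate genes and without macrophage or T cell receptor transcripts, Ppan and Hspe1 turned to log2 ratios of 0.26 and 0.15, and Srm had -0.40, against -1.49 in all gated B cells.

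**Figure D5:**
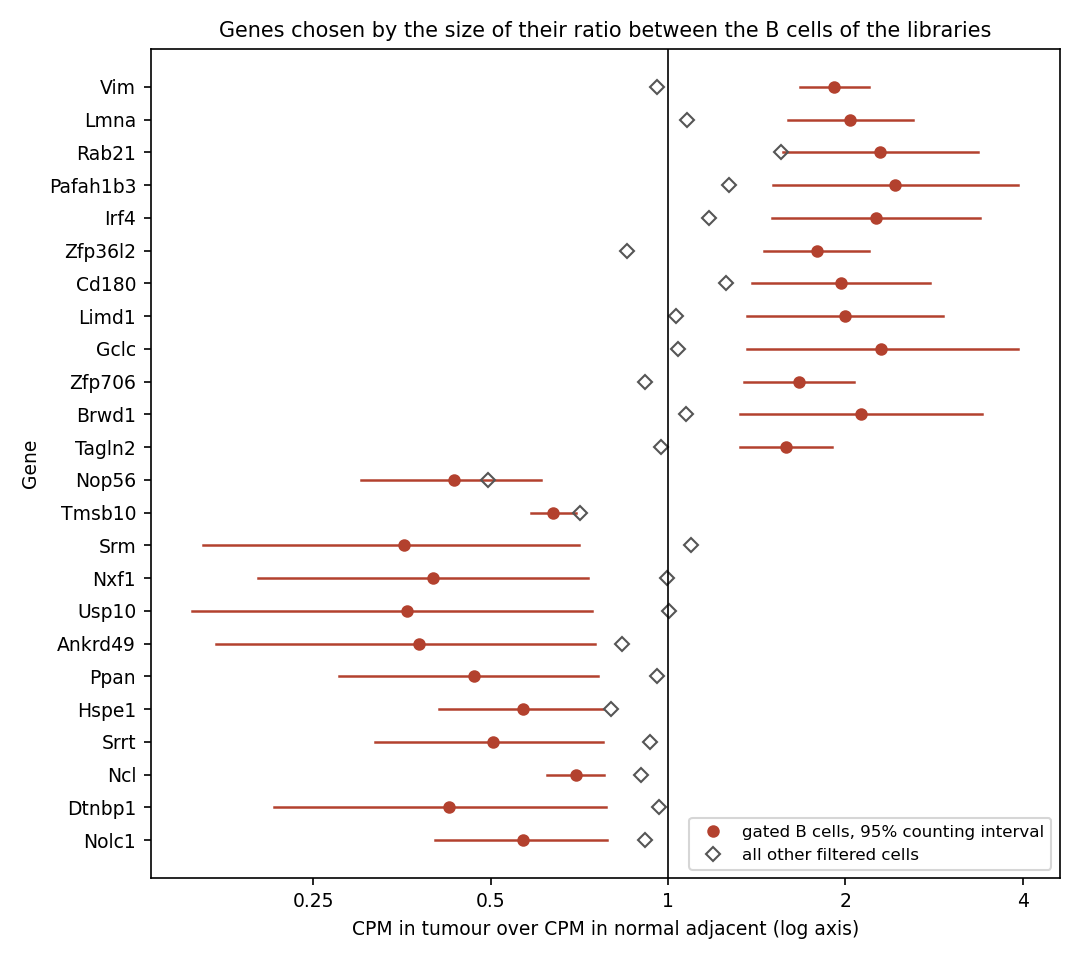
Ratio of CPM, tumour over normal adjacent, on a log axis for the 24 genes named by size, in gated B cells (circles with 95% counting intervals) and in all other filtered cells (diamonds). Nop56 stood at 0.433 in B cells and 0.495 in the rest, Rab21 at 2.29 in B cells and 1.55 in the rest, and Vim stood at 1.92 in B cells and 0.959 in the rest.

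Early response genes stood on different sides. Of 15 compared, 4 had a ratio above 1 and 2 were past 1.5-fold in each direction. Fos stood at 343 CPM in tumour and 609 CPM in normal adjacent B cells, a ratio of 0.563 (0.472 to 0.669), against 0.981 in the other cells. Its partner Jun stood at 535 CPM in tumour and 268 CPM in normal adjacent B cells, a ratio of 1.99 (1.67 to 2.37), and Egr1 had a ratio of 2.02 (1.54 to 2.65). In tumour 27.5% of the Jun UMIs and 55.8% of the Egr1 UMIs came from 1 cell, and without the 7 cells the ratios were 1.37 (1.08 to 1.73) and 1.34 (0.909 to 1.95). Of the 14 genes compared without them, none was past 1.5-fold higher and 1 was past it lower. The heat shock gene Hspa1a had a ratio of 0.357 (0.145 to 0.767), against 0.449 in the other cells.

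Antigen presentation and antigen receptor signalling were close between the libraries. Of 9 MHC class II genes, none was past 1.5-fold, 3 had a ratio above 1 and the median log2 ratio was -0.15, while 5 had a ratio above 1 and the median was 0.03 without the 7 cells. Cd74, the invariant chain, stood at 18182 CPM in tumour and 22899 CPM in normal adjacent B cells, a ratio of 0.794 (0.775 to 0.814), which was 0.863 (0.842 to 0.885) without the 7 cells. The class II chain H2-Aa stood at 6757 CPM in tumour and 7480 CPM in normal adjacent B cells. These genes were also abundant outside B cells, with Cd74 at 15870 CPM in tumour and 15270 CPM in normal adjacent T cells. Only H2-DMb2 and H2-Oa were at least 2-fold above other cells in both libraries. Of the 14 receptor signalling genes, 7 had a ratio above 1 (9 without the 7 cells) and none was past 1.5-fold in either case, and the kinases Lyn, Syk and Btk had ratios of 1.04, 0.882 and 0.943.

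Among survival and costimulation receptors 9 of 13 were compared, with 5 ratios above 1, 2 past 1.5-fold higher, 1 past 1.5-fold lower and a median log2 ratio of 0.12. The lower one was Bcl2a1d at 0.655 (0.347 to 1.17), which was 0.736 (0.390 to 1.32) without the 7 cells, and then 6 of 8 ratios were above 1, 3 past 1.5-fold higher and none past it lower. Cd86, a ligand that costimulates T cells, stood at 262 CPM in tumour and 264 CPM in normal adjacent B cells, and Cd83, a marker of activation, at 482 CPM in tumour and 558 CPM in normal adjacent B cells. Traf1, an adaptor of the tumour necrosis factor receptors, had a ratio of 1.5 (1.13 to 2.0). Of the memory and atypical B cell list 6 of 12 genes were compared, 4 had a ratio above 1 and the median was 0.34, but only Zeb2 was past 1.5-fold and it was lower, with 36.3 CPM in tumour and 69.9 CPM in normal adjacent B cells, a ratio of 0.520 (0.291 to 0.884). Without the 7 cells Zeb2 had 0.613 (0.335 to 1.06), and Ccr6 and Nt5e were past the limit higher at 1.65 (0.953 to 2.84) and 1.56 (0.906 to 2.66), so each of the 3 intervals held 1. Of the marginal zone and B-1 list 6 of 14 were compared, with 1 gene past 1.5-fold in each direction, Cd9 higher at 1.58 (1.18 to 2.12) with 20.7% of its tumour UMIs in 1 cell, and Notch2 lower at 0.655 (0.407 to 1.02). These were 1.55 (1.12 to 2.14) for Cd9 and 0.721 (0.444 to 1.14) for Notch2 without the 7 cells, so none of this list was past 1.5-fold lower. Of the homing genes 9 of 12 were compared, 3 had a ratio above 1, and S1pr4 was past 1.5-fold lower at 0.655 (0.361 to 1.13). The number above 1 was 5 without the 7 cells.

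The B cells made few cytokine transcripts. Of 12 cytokine genes 3 reached 50 UMIs. Ltb, a subunit of the lymphotoxin that organises lymphoid tissue, stood at 359 CPM in tumour and 272 CPM in normal adjacent B cells, a ratio of 1.32 (1.08 to 1.60). Tgfb1 had a ratio of 0.874 (0.738 to 1.03). The chemokine gene Ccl4 had 0.972 (0.678 to 1.38), with 54.0% of its tumour UMIs in 1 cell, and 0.492 (0.299 to 0.781) without the 7 cells. Il10, a cytokine of regulatory B cells, had 10 UMIs in tumour and 18 in normal adjacent B cells, and Il6 had none. Interferon-induced genes were low as well, with 3 of 13 measured genes compared. Bst2 was past 1.5-fold higher at 1.99 (1.45 to 2.72), with 47.1% of its tumour UMIs in 1 cell, and 1.98 (1.28 to 3.06) without the 7 cells.

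The members varied among themselves along IgD. At 1000 UMIs per cell, each B cell was weighted as IgD-positive by its chance of keeping an Ighd UMI and as IgD-negative otherwise. Cells with Ighd UMIs thus counted partly in both groups. Ighd itself had a ratio of 3.88 in tumour and 2.62 in normal adjacent tissue, so the groups were not fully separate. They were set against each other in each library over 526 other genes with enough UMIs. Of these, 0.19% were at least 1.5-fold higher and 1.33% at least 1.5-fold lower in the IgD-positive cells of both libraries. Satb1, a chromatin organiser, was higher in IgD-positive cells, with a ratio of 1.79 (0.987 to 3.19) in tumour and 1.55 (1.03 to 2.33) in normal adjacent tissue. The calcium-binding protein gene S100a6 was lower in IgD-positive cells, with 0.377 (0.129 to 0.903) in tumour and 0.402 (0.198 to 0.753) in normal adjacent tissue, as was Crip1, with 0.562 (0.333 to 0.910) in tumour and 0.654 (0.442 to 0.948) in normal adjacent tissue. S100a6 and Crip1 were the only 2 genes whose intervals lay below 1 in both libraries, and none lay above 1 in both. The weighted sums are fractional and share cells, so these intervals are approximate. Without thinning, cells with an Ighd UMI were set against cells without, and a deeper cell is more likely to show one. Of 3096 genes, 3.71% were at least 1.5-fold higher in the cells with an Ighd UMI in both libraries and 2.33% at least 1.5-fold lower. The interval lay above 1 in both libraries for 42 of these genes and below 1 in both for 46. In that comparison Satb1 had ratios of 2.78 (1.96 to 4.0) in tumour and 3.43 (2.50 to 4.84) in normal adjacent tissue, and Lmna was lower, at 0.346 (0.237 to 0.50) in tumour and 0.380 (0.267 to 0.542) in normal adjacent tissue.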

How the data were processed

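Raw UMI counts per gene and barcode were deposited by the authors for 32285 mouse genes in 8237 tumour and 6553 normal adjacent barcodes, with 92188538 and 77855775 UMIs. Counting was done with Cell Ranger 4.0.0, per the file headers. R 4.0.3, Seurat 3.2.2 and the human build GRCh38 appear in the submitters' processing notes, although all features are genes of the mouse. The mouse build, the annotation and the settings of cell calling were not given in the sources used here.

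Barcodes with under 200 genes or over 20% mitochondrial UMIs were removed. No doublet caller was run and no cluster was made. UMIs were summed per library and divided by all UMIs of the same cells (CPM, with exact Poisson intervals). Ratios have exact conditional binomial intervals, shares have exact intervals by Clopper-Pearson and differences between shares have Newcombe intervals, at 95%. Where cells were thinned or weighted the counts are fractional, and the intervals are approximate. List medians of log2 ratios have 0.5 UMIs added to each sum. A count of 0 was given a floor of 3 counts per library. Shares at 1000 UMIs per cell are means over all draws, which left out 1 cell in each library with fewer UMIs. This replaced 1 random draw after the sign of the Ighd difference was seen to vary between settings with it. Ratio intervals were tested on simulated independent Poisson counts, which leave out the gathering of UMIs in single cells.

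Genes were named by rank of the interval bound nearest 1, with at least 50 UMIs, 15 against other cells and 12 each way between libraries, and, for the latter, 50 CPM in the higher library, at least 0.5 of the CPM in its other cells and at most 20% of its UMIs in 1 cell. In the IgD comparison the first 8 each way, with at least 20 UMIs per library, were eligible. Mitochondrial, ribosomal protein, haemoglobin, receptor segment, unnamed and sex-linked genes were left out. The cells, the 15 gene lists and the 10 marker lists were chosen with earlier results of these data known. The 7 cells left out at times held at least 5 UMIs of epithelial markers, 3 of Siglech or 10 of Jchain. These limits, those for light chains, switched classes and V segments, and the comparison by IgD without thinning were chosen after seeing the data. Some named genes are left out of the text. Of 193 list genes 192 are in the files. Promoters came from RefSeq, build GRCm38.p6. Python 3.11.15, NumPy 2.4.6, SciPy 1.17.1, pandas 2.3.3 and matplotlib 3.10.9 were used.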

Additional observations from a re-analysis of the deposited data

How the results depend on the processing

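The B cell difference kept its direction under every alternative run for it, none of which relaxed the Mzb1 limit. It ran from -3.02 points without the C1q, calprotectin and Cd3 exclusions to -0.510 with no C1q UMI allowed. It was -0.667 without cells that carried macrophage or T cell receptor transcripts. The ratio of B cells per 100 T cells was 0.554, 0.637 and 0.425 under these 3 settings in turn, against 0.483 in the main gate. In the same order 19 of 8989, 19 of 1718 and 19 of 1084 genes were at least 10-fold above other cells, against 29 of 3655. Of the genes compared by IgD, 1 of 526 was 1.5-fold higher in IgD-positive cells of both libraries. The count was 2 of 193 with no C1q UMI allowed and 19 of 1519 without the exclusions. It was 0 of 95 without the cells carrying other transcripts and 115 of 3096 when cells were not thinned. The share of genes past 1.5-fold between libraries varied with the setting, as did the genes compared. It was 4.83% higher and 2.75% lower of 8989 genes without the exclusions. From cells thinned to 1000 UMIs it was 2.23% and 0.838% of 716 genes. At a minimum of 20 UMIs it was 14.0% and 8.76% of 6129 genes, and at 200 it was 3.57% and 1.78% of 953. With any UMI it was 28.4% and 24.6% of 13444 genes. The cause of these changes was not tested. Ppan and Hspe1 reversed to 0.26 and 0.15 on the log2 scale under the stricter gate without cells carrying other transcripts, and the cause was not tested. Of 168 values for the 24 named genes over 7 settings, 155 moved by less than the counting error, 11 moved further and 2 reversed. A TMM scaling was not run, since the median-ratio scaling of the sums stood for it. With 1 library per group no library could be left out. No paired analysis was possible because each group has 1 library and the labels share a single number. Depth limits genes under about 50 UMIs and any IgD difference at 1000 UMIs per cell.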
